A study of Mus musculus with 12 samples.

Results

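The transcripts described here encode 7 transcription factors that surround the core circadian clock: the PAR bZIP activators Dbp, Tef and Hlf, the bZIP repressor Nfil3 (E4BP4), the DEC repressors Bhlhe40 (DEC1) and Bhlhe41 (DEC2), and the repressor Ciart (CHRONO). They were taken from the count table by gene symbol, and all 7 were found among the 40840 genes of the count table. Whole pancreas of male C57BL/6J mice, an inbred laboratory strain, was profiled by sequencing of polyadenylated RNA in Old mice (25 months) and Young mice (5 months). Both ages had lived alone on a light-dark cycle for 4 weeks, and the labels name no transgene, deletion or agent. Each age had 1 library at each of 4, 8, 12, 16, 20 and 24 h on the labelled zeitgeber scale, collected in the dark, and an age has no second library at any time. Whether a library holds RNA of 1 mouse or of a pool is not in the labels, and p-values measure the spread of these libraries around a 24 h curve.

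In the mammalian clock, the activator pair CLOCK and BMAL1 binds E-box sequences in DNA and switches on its own repressors. It also drives Dbp, Tef and Hlf, whose proteins bind a shared D-box sequence and activate output genes, while the protein of Nfil3 competes for the same D-box and represses. The DEC proteins and CHRONO act back on CLOCK and BMAL1 as repressors. In liver and other peripheral tissues Dbp is known as one of the transcripts with the widest daily swing, and Nfil3 is known to run opposite to it.

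Start-site windows of the members were searched for the binding letters of these factors, since these are the sequences through which the family is known to be wired to the clock. The windows, taken from RefSeq on GRCm38.p6, run from 250 bases before to 50 bases after an annotated start, and 6 members had 7 of them, 2 for Tef and none for Bhlhe40. The E-box CACGTG was present in 4 of the 7 windows. Ciart (chr3:95882179-95882478, minus strand) held 3 copies at 116, 58 and 44 bases before its start. The Tef windows (chr15:81802423-81802722 and chr15:81811164-81811463, both plus strand) held 1 each, at 127 and 138 bases before the start. Bhlhe41 (chr6:145865371-145865670, minus strand) held 1 at 153 bases before its start. The window of Dbp (chr7:45704997-45705296, plus strand) held none and is shown for contrast, as it is the member with the widest swing in the values below. Sequences run 5′ to 3′ on the strand of the gene, and capitals mark each CACGTG.
Ciart: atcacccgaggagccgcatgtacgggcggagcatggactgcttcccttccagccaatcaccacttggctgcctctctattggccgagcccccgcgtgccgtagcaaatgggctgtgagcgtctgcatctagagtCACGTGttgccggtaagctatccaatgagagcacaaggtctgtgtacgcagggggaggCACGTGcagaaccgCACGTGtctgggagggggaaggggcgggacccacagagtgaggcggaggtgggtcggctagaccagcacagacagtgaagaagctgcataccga
Tef, first start: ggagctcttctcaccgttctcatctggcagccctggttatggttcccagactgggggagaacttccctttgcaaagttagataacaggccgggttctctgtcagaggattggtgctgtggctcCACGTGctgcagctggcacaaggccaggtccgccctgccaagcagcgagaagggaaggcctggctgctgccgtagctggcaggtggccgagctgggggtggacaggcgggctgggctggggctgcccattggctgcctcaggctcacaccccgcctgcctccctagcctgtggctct
Tef, second start: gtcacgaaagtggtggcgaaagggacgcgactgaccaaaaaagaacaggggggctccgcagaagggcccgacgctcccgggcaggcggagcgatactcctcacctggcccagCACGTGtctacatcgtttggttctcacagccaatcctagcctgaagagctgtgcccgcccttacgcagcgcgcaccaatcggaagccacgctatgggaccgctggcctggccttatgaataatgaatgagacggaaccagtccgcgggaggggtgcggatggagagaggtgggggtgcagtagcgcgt
Bhlhe41: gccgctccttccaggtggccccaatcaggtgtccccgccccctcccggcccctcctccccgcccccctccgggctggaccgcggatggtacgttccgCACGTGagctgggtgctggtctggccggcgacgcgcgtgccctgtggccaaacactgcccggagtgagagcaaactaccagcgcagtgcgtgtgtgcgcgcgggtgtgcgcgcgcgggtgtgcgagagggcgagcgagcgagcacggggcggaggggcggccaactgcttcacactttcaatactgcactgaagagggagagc
Dbp: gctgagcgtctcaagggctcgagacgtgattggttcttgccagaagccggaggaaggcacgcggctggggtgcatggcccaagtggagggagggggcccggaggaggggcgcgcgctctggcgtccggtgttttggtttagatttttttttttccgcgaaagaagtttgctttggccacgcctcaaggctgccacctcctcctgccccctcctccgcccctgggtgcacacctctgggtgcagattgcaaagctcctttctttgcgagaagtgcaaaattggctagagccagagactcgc

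Over all 32851 windows of the same length, 7.15% held at least 1 CACGTG, which reads the same on both strands, and 0.0883% (29 windows) held 3 or more, as Ciart did. The variant CACGTT, in 4.68% of all windows, the D-box written as TTATGTAA or TTACGTAA, in 1.06%, and the ROR response element with its flanking A and T bases, in 0.219%, were searched on both strands, and none was present in the 7 member windows. None of these motifs overlapped another in the member windows. These are matches of letters in short windows and not measured binding. Sequence outside the windows was not searched, so a window without a motif, as for Dbp, does not mean a gene without one.

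The library labelled Young 4 h stood apart from the rest, and results are given with and without it. It held 2918805 counts, against 1030189 to 1404038 in the other 11 libraries. Its markers of central neurons summed to 1250 CPM (counts scaled to a common library total) with 7 of 7 markers counted, against 0.737 to 5.13 CPM in Old and 0 to 7.77 CPM in the other Young libraries, where Slc17a7 and Nefl were at 0. Markers of central glia summed to 1900 CPM in it, against 16.0 to 37.7 CPM in Old, where Aqp4 was at 0, and 21.6 to 27.3 CPM in the other Young libraries. Markers of acinar cells, the main cells of pancreas, summed to 171940 to 251170 CPM in Old and 179720 to 248070 CPM in the 5 other Young libraries, and to 102160 CPM in Young 4 h. Islet markers summed to 39.4 to 765 CPM in Old and 34.8 to 703 CPM in Young. Immune markers summed to 33.2 to 453.5 CPM in Old, highest at 24 h, and to 9.59 to 126 CPM in Young. Fat cell markers summed to 5.49 to 36.8 CPM in Old and 5.48 to 56.5 CPM in Young, highest at 8 h. Duct markers summed to 80.4 to 129 CPM in Old and 67.5 to 110 CPM in Young. Levels are on library totals, and by the TMM scaling used in the tests, which multiplies the total of Young 4 h by 1.79 and the others by 0.890 to 1.03, its levels are lower. In bulk tissue, fewer cells of a type and less RNA per cell cannot be told apart.

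The members were scarce in pancreas, and depth set what could be seen. A single count was worth 0.712 to 0.971 CPM in the 11 libraries and 0.343 CPM in Young 4 h, and a count of 0 allows a level of up to 3 counts, or 2.14 to 2.91 CPM and 1.03 CPM. Median counts over the 11 libraries were 36 for Tef, 12 for Bhlhe40, 7 for Bhlhe41, 6 for Nfil3, 3 for Dbp, 3 for Hlf and 1 for Ciart. Per kilobase of annotated exon, Tef was the most abundant at 4.56 ± 3.87 CPM per kb in Old (SD, n = 6) and 4.94 ± 3.07 in Young (n = 5, without Young 4 h). Hlf was the least abundant at 0.303 ± 0.279 CPM per kb in Old and 0.343 ± 0.281 in Young. Dbp, Nfil3 and Bhlhe40 had mean levels of 2.11 to 3.01 CPM per kb in either age, with standard deviations of 1.16 to 4.54 that were wider than the gaps between them. The SDs here span collection times and so hold the daily change as well as the spread between samples.

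**Figure D1:**
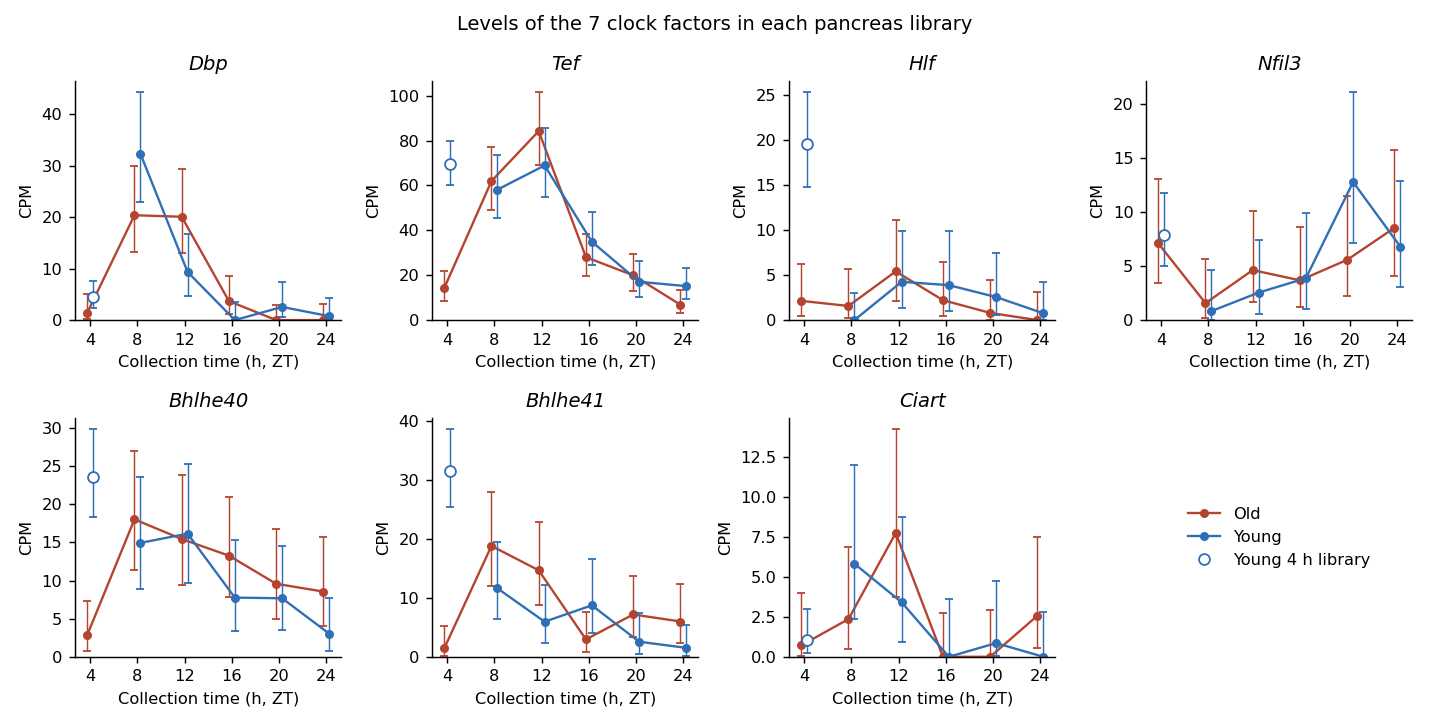
Level of each of the 7 transcripts in CPM (y axis, linear, a scale for each panel) against collection time in hours (x axis), Old and Young, with exact Poisson 95% intervals of the counts as bars and the library labelled Young 4 h as an open point. Dbp and Tef were high at 8 and 12 h and low at 20 and 24 h in both ages, and Nfil3 was lowest at 8 h in both. Those Nfil3 values were 2 counts in Old and 1 in Young, under the limit that a count of 0 allows.

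Only Tef and Bhlhe40 had enough counts to be tested by edgeR's own filter (filterByExpr), so a second filter that keeps genes with at least 10 counts summed over the libraries fitted was used to test all 7. By the first filter with all 12 libraries, Tef was the 1 member of 2 tested that followed a 24 h curve shared by both ages at an adjusted p under 0.05, where 0.155% of 5808 genes did. Without Young 4 h, Tef was again the 1 of 2, where 1.49% of 5852 genes did. With the second filter and 11 libraries, 2 of 7 members were called, Dbp and Tef, where 1.11% of 13661 genes were. With that filter and all 12 libraries the same count was 2 of 7, Dbp and Tef, where 1.1% of 15960 genes were called. The median amplitude of the 7 members in 11 libraries, meaning how far the peak stands above the middle of the curve in log2 units, was 1.20, and that of all 13661 genes was 0.355. A fitted amplitude is never below 0, and counting noise adds to it. In those libraries the median over all genes was 0.231 with the first filter and 0.728 with no filter. The member at the median was Hlf, which was not called.

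DESeq2, run on the same genes, called the shared curves of the same members, Tef and, with the second filter, Dbp. With the first filter and 12 libraries it called Tef, 1 of 2, for the shared curve (0.689% of all genes) and within Old (0.0689%), and 0 of 2 within Young (0.758%), where 1 had an unadjusted p under 0.05. Without Young 4 h it again called Tef for the shared curve (1.03%) and within Old (0.342%), and 0 of 2 within Young (0.0684%). It gave Bhlhe40 no adjusted p there for the shared curve or for age. With the second filter and 11 libraries it called Dbp and Tef, 2 of 7, for the shared curve (0.425%), and 0 of 7 within Young (0.0293%), where 3 had an unadjusted p under 0.05. Hlf and Ciart got no adjusted p for the shared curve there. Within Old it called Tef (0.11%), the 1 member to which it gave an adjusted p, and the unadjusted p of Dbp was 4.69e-07. DESeq2 called no member for age, where 0.0861%, 0.239% and 0.0878% of all genes were called in those 3 fits, and no member had an unadjusted p under 0.05.

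Dbp, the founding PAR bZIP activator, was high at 8 and 12 h and had 0 to 3 counts at 20 and 24 h in both ages. In Old its levels were 1.42, 20.4, 20.1, 3.69, 0 and 0 CPM at 4, 8, 12, 16, 20 and 24 h, from 2, 26, 26, 5, 0 and 0 counts. In Young they were 4.45 CPM in Young 4 h and 32.4, 9.36, 0, 2.56 and 0.757 CPM at 8, 12, 16, 20 and 24 h, from 13, 39, 11, 0, 3 and 1 counts. In Old the 8 and 12 h libraries stood equally high, and in Young 8 h stood alone. The Poisson intervals of Old 8 h (13.3 to 29.9 CPM) and Old 12 h (13.1 to 29.4 CPM) nearly coincided, while that of Young 8 h (23.0 to 44.3 CPM) did not reach that of Young 12 h (4.67 to 16.7 CPM).

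Dbp passed the test of the shared curve in 11 libraries with a log2 amplitude of 2.98 and a peak at 9.47 h (adjusted p = 4.89e-09, edgeR quasi-likelihood, Benjamini-Hochberg over 13661 genes). It also passed within Old (amplitude 3.67, peak at 10.4 h, adjusted p = 2.16e-08 by the same edgeR test), where 1.16% of genes were called, and within Young (2.78, 7.34 h, adjusted p = 2.07e-06), where 0.205% were. By least squares on log2 CPM with a prior count of 2, the amplitude was 2.18 ± 0.25 in Old (SE, n = 6) and 1.95 ± 0.83 in Young (n = 5). The peak lay 3.22 ± 1.73 h later in Old than in Young by these fits. With all 12 libraries it lay 2.00 ± 1.92 h later. Without Young 4 h, Young has no library between 24 h and 8 h, where its fitted peak of 7.27 h falls. The 5 Young points leave little to estimate spread, so the SE of this gap is uncertain. The edgeR test of a difference between the 2 curves gave an unadjusted p of 0.00292 for Dbp and an adjusted p of 0.512. The call within Young rested on 1 library: without Young 8 h its adjusted p by edgeR was 0.853. Young 8 h was also the library with the highest fat cell marker sum (56.5 CPM), and any part of this in the Dbp level was not tested. DESeq2 gave an adjusted p of 0.0163 for the shared curve and 0.168 for Young, and no adjusted p for Old. With all 12 libraries the edgeR values were an amplitude of 3.00 and an adjusted p of 0.0157 for the shared curve. Adjusted p by edgeR was then 0.535 in Old, where 0.00627% of 15960 genes were called, and 0.0391 in Young, where 4.09% were.

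The exons of Dbp (chr7:45705088-45710203, plus strand, GENCODE M21 on GRCm38) share 539 bases, 18.0% of their length, with Sphk2 on the opposite strand, which had 189 counts over the 12 libraries. Whether the counting used strand is not stated in the labels or files, and counts from those bases cannot be told apart.

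Tef, the PAR bZIP activator with the highest level here, was called for a 24 h curve in each age by edgeR without Young 4 h. In Old it stood at 14.2, 62.0, 84.2, 28.0, 20.0 and 6.85 CPM at 4 to 24 h, from 20, 79, 109, 38, 25 and 8 counts. In Young it stood at 69.5 CPM (203 counts) in Young 4 h and at 58.1, 68.9, 34.9, 17.1 and 15.1 CPM at 8 to 24 h, from 70, 81, 36, 20 and 20 counts. The 8 and 12 h libraries were the highest in Old and, Young 4 h apart, in Young, and 24 h was the lowest in each. Young 4 h was near 8 and 12 h of its age on library totals, but on the TMM scale Tef stood at 38.9 CPM in it, against 63.6 and 67.0 CPM at 8 and 12 h. Old 4 h was among the lowest of its own age. In Old the Poisson interval at 24 h (2.96 to 13.5 CPM) overlapped that at 20 h (12.9 to 29.5 CPM).

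In 12 libraries and with the first filter, Tef peaked at 10.7 h with a shared amplitude of 1.28 (adjusted p = 0.0303, edgeR quasi-likelihood, Benjamini-Hochberg over 5808 genes). The call ended on leaving out Old 8, 12 or 24 h, or a Young library other than 4 h, with adjusted p by edgeR of 0.0522 to 0.144. Without Young 4 h the amplitude was 1.36 and the peak 11.1 h (adjusted p = 7.12e-06), and the call held whichever further library was left out (adjusted p of 0.000398 at most). In those 11 libraries Tef also passed within Old (1.63, adjusted p = 0.000257 by edgeR) and within Young (1.08, adjusted p = 0.0243), where 0.752% and 0.171% of 5852 genes did. With all 12 libraries those adjusted p by edgeR were 0.106 and 0.190, where 0% (0 genes, 201 with an unadjusted p under 0.05) and 0.0517% of 5808 genes passed. With the second filter they were then 0.0830 and 0.0401, where 0.00627% and 4.09% of 15960 genes passed. With no filter they were 0.00364 and 0.0180, where 0.0486% and 3.97% of 28805 genes passed. In the 11 libraries with the first filter, the call in Young was lost without Young 8, 12, 20 or 24 h (adjusted p of up to 0.213 by edgeR). It was also lost by DESeq2 (adjusted p = 0.156), and the amplitude was 1.04 to 1.09 over all 11 such edgeR fits. With the second filter edgeR called Tef in Young in 11 of 11 such fits (adjusted p of 0.0335 at most). Least squares gave an amplitude of 1.56 ± 0.29 in Old (SE, n = 6) and 1.02 ± 0.02 in Young (n = 5), a difference of 0.54 ± 0.29. The peak was at 11.6 ± 0.7 h in Old and 10.4 ± 0.11 h in Young, a difference of 1.24 ± 0.71 h. The 5 Young points leave little beyond the fitted curve to estimate spread. The SEs of Young, and of the differences, are therefore uncertain and can understate the error. Counting error alone was wide, with a Poisson interval of 10.4 to 26.4 CPM for Tef in Young 20 h. The test of a difference between the curves gave Tef an unadjusted p of 0.120 by edgeR.

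**Figure D2:**
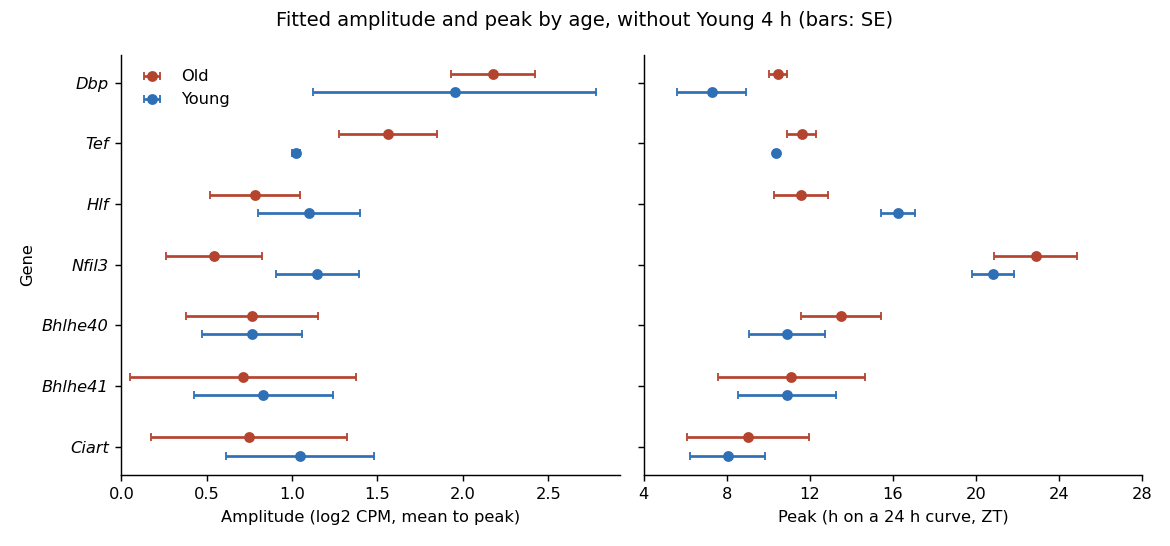
Amplitude in log2 CPM (left panel, x axis) and peak hour (right panel, x axis) of least squares 24 h curves, by gene (y axis), with SE as bars. Old (n = 6) and Young (n = 5) were fitted separately with a prior count of 2, and the library labelled Young 4 h was left out. Tef and Dbp show a peak between 7.27 and 11.6 h in both ages. The Old minus Young peak gap was 3.22 ± 1.73 h for Dbp and -4.68 ± 1.52 h for Hlf, which was at or near the detection limit. With all 12 libraries those gaps were 2.00 ± 1.92 h and -7.3 ± 22.0 h. The curves of no member were called as different between ages by edgeR.

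Hlf, the third PAR bZIP activator and well known in liver, was at or near the detection limit outside Young 4 h. Old libraries held 3, 2, 7, 3, 1 and 0 counts at 4 to 24 h, or 0 to 5.41 CPM. Young libraries held 57 counts (19.5 CPM) at 4 h and 0, 5, 4, 3 and 1 counts at 8 to 24 h, or 0 to 4.25 CPM. The library labelled Young 4 h, in which the brain markers above were also high, stood apart, and all others overlapped between the ages. Without it the shared amplitude was 1.20 with its peak at 13.7 h (unadjusted p = 0.065, adjusted p = 0.606 by edgeR). The Old minus Young difference was -1.10 on the log2 scale with Young 4 h and 0.03 without it, and edgeR called neither.

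Nfil3, which binds the D-box without activating, had its lowest level at 8 h in both ages, when Dbp was at its highest. Nfil3 was there under the limit that a count of 0 allows, with 2 counts in Old and 1 in Young. In Old it stood at 7.12, 1.57, 4.64, 3.69, 5.59 and 8.56 CPM at 4 to 24 h, from 10, 2, 6, 5, 7 and 10 counts. In Young it stood at 7.88 CPM in Young 4 h and 0.830, 2.55, 3.88, 12.8 and 6.81 CPM at 8 to 24 h, from 23, 1, 3, 4, 15 and 9 counts. The highest Young library was 20 h and the highest Old library 24 h. The Poisson interval of Young 20 h (7.17 to 21.1 CPM) did not reach that of Young 8 h (0.0210 to 4.63 CPM), but in Old the intervals at 24 h (4.10 to 15.7 CPM) and 8 h (0.190 to 5.67 CPM) overlapped. In 11 libraries the shared amplitude was 1.02 with a peak at 21.9 h (unadjusted p = 0.00444, adjusted p = 0.189 by edgeR), so Nfil3 was not called. By age the edgeR amplitude was 0.63 in Old (peak at 23.3 h, adjusted p = 0.871) and 1.72 in Young (20.7 h, unadjusted p = 0.00245, adjusted p = 0.410). Old 24 h, with the highest Nfil3 of its age, was also the library with the highest immune marker sum (453.5 CPM). Without that library the shared amplitude of Nfil3 was 1.06, and any part of immune cells in the Nfil3 level was not tested.

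In both ages the summed activators were lowest at 24 h and the repressor Nfil3 was lowest at 8 h. The Nfil3 minima, 2 counts in Old and 1 in Young, were under the 3 counts that a count of 0 allows. Its curve was not called. The summed level of Dbp, Tef and Hlf in Old was 17.8, 83.9, 109.7, 33.9, 20.8 and 6.85 CPM at 4 to 24 h. In Young it was 93.5 CPM in Young 4 h and 90.5, 82.5, 38.8, 22.2 and 16.6 CPM at 8 to 24 h. Tef was the largest part of the sum in every library, so the sum mostly follows Tef. It gave 84.2 of 109.7 CPM in Old 12 h and 58.1 of 90.5 CPM in Young 8 h. At 24 h, where the sum was lowest, Nfil3 was the highest of Old, and at 8 h, where Nfil3 was lowest, the sum was the highest of Young, Young 4 h apart. Across the 11 libraries without Young 4 h, log2 CPM of Nfil3 had a Pearson's r of -0.755 with Tef and -0.696 with Dbp, while Dbp and Tef correlated at 0.816. These 11 points share collection times and depth.

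**Figure D3:**
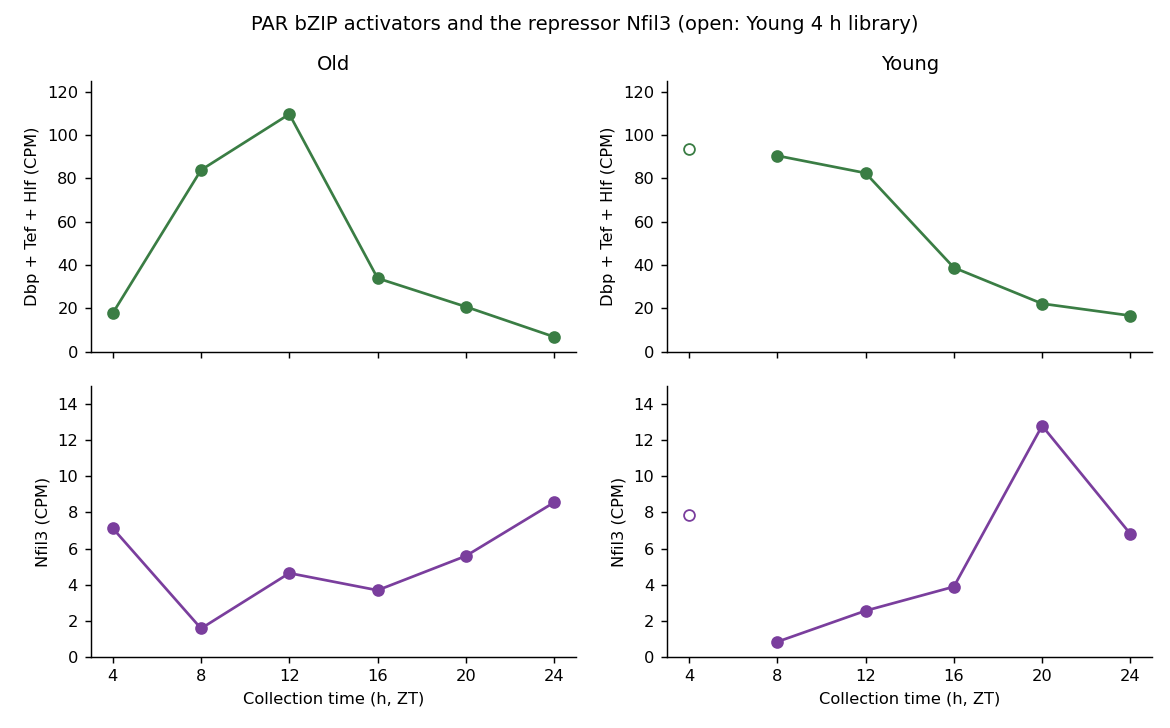
Summed CPM of Dbp, Tef and Hlf (upper panels) and CPM of Nfil3 (lower panels, smaller scale) against collection time in hours, Old at left and Young at right, 1 library per point, with the library labelled Young 4 h as an open point. The sum peaks at 109.7 CPM at 12 h in Old and 90.5 CPM at 8 h in Young (Young 4 h apart), and Nfil3 is lowest at 8 h in both. Those Nfil3 values are 2 counts in Old and 1 in Young, under the limit that a count of 0 allows. Tef is the largest part of the sum at every point.

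The DEC repressors Bhlhe40 and Bhlhe41 were higher from 8 to 12 h than at 24 h in both ages, but neither passed the test over all genes. Bhlhe40, which is also known to respond to low oxygen, stood at 2.85, 18.0, 15.5, 13.3, 9.58 and 8.56 CPM at 4 to 24 h in Old. In Young it stood at 23.6 CPM in Young 4 h and 14.9, 16.2, 7.77, 7.68 and 3.03 CPM at 8 to 24 h. Its highest library was 8 h in Old and, Young 4 h apart, 12 h in Young, and its lowest was 4 h in Old and 24 h in Young. In 11 libraries Bhlhe40 peaked at 11.9 h with an amplitude of 0.81 (unadjusted p = 0.00556, adjusted p = 0.180 by edgeR), and in 12 libraries 0.67 (adjusted p = 0.488).

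Bhlhe41 stood at 1.42, 18.8, 14.7, 2.95, 7.19 and 5.99 CPM at 4 to 24 h in Old. In Young it stood at 31.5 CPM in Young 4 h, from 92 counts, and 11.6, 5.95, 8.74, 2.56 and 1.51 CPM at 8 to 24 h. The 8 h library was the highest in Old and, Young 4 h apart, in Young. With the second filter and 11 libraries its shared amplitude was 1.00 with a peak at 10.5 h (unadjusted p = 0.00185, adjusted p = 0.117 by edgeR). It was called without Young 12 h (adjusted p = 0.0451 by edgeR), so that 1 library decides its side of the threshold. Bhlhe41 shares 1280 exon bases, 19.0% of its length, with the unclassified transcript Gm43909 on the opposite strand. Its Old minus Young difference was -0.01 on the log2 scale with Young 4 h and 0.49 without it, and edgeR called neither. Bhlhe40 and Bhlhe41 correlated at r = 0.779 over the 11 libraries.

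Ciart, the repressor with 3 E-boxes in its window above, was detected mainly at 8 and 12 h. Old libraries held 1, 3, 10, 0, 0 and 3 counts at 4 to 24 h, with the highest level of 7.73 CPM at 12 h. Young libraries held 3 counts at 4 h (1.03 CPM in Young 4 h) and 7, 4, 0, 1 and 0 at 8 to 24 h, with the highest level of 5.81 CPM at 8 h. Most of these are at or below the limit that a count of 0 allows. In 11 libraries the amplitude was 1.78 with a peak at 9.23 h (unadjusted p = 0.00492, adjusted p = 0.199 by edgeR), and it was called without Old 24 h (adjusted p = 0.0372). On library totals Tef, Hlf, Bhlhe40 and Bhlhe41 had their highest Young level in the library labelled Young 4 h, and on the TMM scale only Hlf (10.9 CPM) and Bhlhe41 (17.6 CPM) did. The part of its neural transcripts in those levels was not tested.

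The fitted peaks of all members but Nfil3 lay between those of Nr1d1 and Per2, within their errors, and that of Nfil3 lay near Arntl. Of the 7 members, only Dbp and Tef passed the shared test by edgeR without Young 4 h, so the other hours describe curves that were not called. Fitted for each age alone, Hlf, at or near the detection limit, peaked at 11.6 ± 1.3 h in Old and 16.2 ± 0.8 h in Young (SE). By least squares over both ages (n = 11) the peaks were at 8.61 ± 1.51 h for Ciart, 9.36 ± 0.96 h for Dbp, 11.0 ± 1.88 h for Bhlhe41, 11.3 ± 0.58 h for Tef, 12.4 ± 1.24 h for Bhlhe40, 14.1 ± 1.41 h for Hlf and 21.8 ± 1.08 h for Nfil3 (SE). The errors of neighbours in that order overlap except between Hlf and Nfil3. Nr1d1, a repressor of Nfil3 and of Arntl, peaked at 8.25 ± 0.96 h, Per1 at 11.5 ± 0.4 h, and Per2, a repressor of CLOCK and BMAL1, at 13.9 ± 0.6 h. Arntl, which encodes BMAL1, peaked at 23.1 ± 0.3 h. Of 13 other core clock genes tested with the second filter in these 11 libraries, 10 passed the shared test. Over all 13661 genes, 1.11% did. The median amplitude of the 13 was 1.53, against 1.20 over the 7 members and 0.355 over all genes. As given above, such medians shift with the filter and with counting noise.

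**Figure D4:**
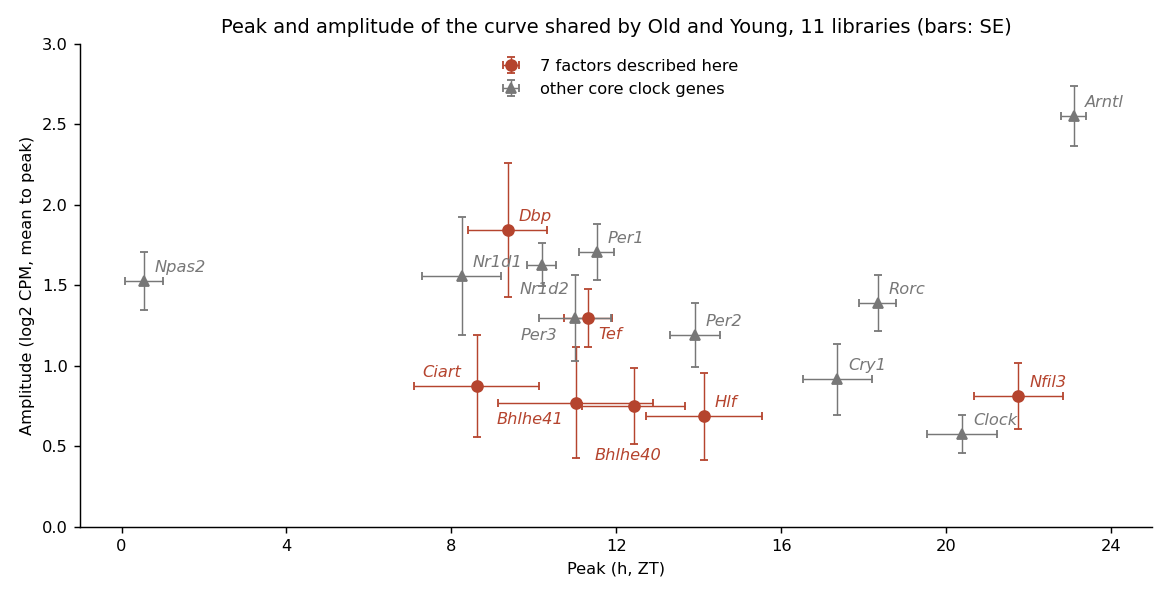
Peak hour (x axis, with SE) against log2 amplitude (y axis, with SE) of the shared least squares curve over 11 libraries for the 7 members and the 10 other core clock genes that passed the shared test. All members but Nfil3 lie between 8.61 and 14.1 h, and Nfil3 lies at 21.8 h beside Arntl at 23.1 h. Of the members, only Dbp and Tef passed that test.

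No member passed the test for a difference in level between Old and Young. The Old minus Young log2 difference by edgeR in 11 libraries was -0.17 for Dbp, -0.13 for Tef, 0.03 for Hlf, 0.0049 for Nfil3, 0.25 for Bhlhe40, 0.49 for Bhlhe41 and 0.20 for Ciart. By edgeR 0 of 7 were called and 0 had an unadjusted p under 0.05, where 0.168% of 13661 genes were called, and DESeq2 called 0 of 7. The intervals leave room for sizeable change: by least squares the 95% interval was -0.89 to 0.37 for Tef, -0.58 to 1.03 for Bhlhe40, -1.67 to 1.27 for Dbp and -0.91 to 1.52 for Bhlhe41. With 12 libraries and the first filter 0 of the 2 tested members were called for age, where 0.0172% of 5808 genes were, and with the second filter 0 of 7, where 0.0251% of 15960 were. The curves of 0 of 7 members differed between ages by edgeR, where 0.0878% of 13661 genes did. Of the 7, 1 (Dbp) had an unadjusted p under 0.05, and DESeq2 called 0.

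The genes whose log2 CPM was most like that of a member were ranked for Tef and Bhlhe40 alone, the members with a median of at least 10 counts, over 5712 genes and 11 libraries. Nearest to Tef were Per1 (r = 0.966), Wdr43 (0.917), Per3 (0.917) and Usp2 (0.908), and Arntl correlated at -0.934. Nearest to Bhlhe40 were Ipo5 (0.948), Srpr (0.899), Trib1 (0.881) and Polr3d (0.845), and Arntl correlated at -0.769. These correlations are over libraries that share collection times and depth.

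Of 8 listed genes known as targets of the PAR bZIP proteins, largely from liver, 4 could be tested with the second filter in 11 libraries. Of these, 1 passed the shared test, where 1.11% of 13661 genes did. It was Por, which encodes the electron donor of microsomal P450 enzymes. Por stood at 11.4, 12.5, 28.6, 11.1, 8.78 and 11.1 CPM at 4 to 24 h in Old, and at 52.1 CPM in Young 4 h and 20.8, 37.4, 29.1, 8.54 and 12.1 CPM at 8 to 24 h in Young. It was highest at 12 h in Old and, Young 4 h apart, in Young. Its amplitude was 0.76 with a peak at 11.8 h (adjusted p = 0.0127 by edgeR), and in 12 libraries with the first filter its adjusted p was 0.407. Of 7 other bZIP factors tested, 1 passed, against that same share of all genes. It was Atf5, a stress-response activator, with an amplitude of 0.54 and a peak at 19.7 h (adjusted p = 0.0162 by edgeR). Of 4 other bHLH-Orange repressors tested, relatives of the DEC proteins, edgeR called 0 and 0 had an unadjusted p under 0.05 for the shared curve.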

How the data were processed

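The authors deposited whole-number counts per gene symbol, 1 column for each of 12 libraries, and all 12 were mapped to a sample by name. Libraries were made with the Illumina mRNA Prep kit from RNA with an integrity number above 8 and sequenced on a NovaSeq, per the labels' protocols. STAR, HTSeq and GRCm38 (mm10) are named in the submitters' processing notes, while the deposited workbook is named for featureCounts, so which counter was used is in doubt. Settings for strand, annotation and multiply matching reads were not given in the sources used here. Totals were 1030189 to 1404038 counts, and 2918805 in Young 4 h.

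CPM was computed on the library total. Quasi-likelihood models in edgeR 4.0.16 (R 4.3.3) took TMM scaling, age and the cosine and sine of 24 h, after filterByExpr by age or a summed count of at least 10, with p adjusted by Benjamini-Hochberg over all genes tested, with calls under 0.05. The rhythms in Old and in Young and their difference came from a fit in which each age had its own curve. The 2 ages share 1 estimate of spread. DESeq2 1.42.0, RLE scaling, no filter, no time term, time as a block and leaving out each library were alternatives. Single-age curves with standard errors were fitted by least squares to log2 CPM (prior count 2). Poisson intervals are exact at 95%, and intervals and floors cover counting error only. The fits were tested on simulated counts with a fixed spread. Changes were planted there only in genes with more counts than Ciart had, or than Hlf had without Young 4 h. Levels that low were therefore not covered. Gene positions are from GENCODE M21. The members, the gene lists and the rules (members in full, up to 4 genes of like pattern, members of each list that passed) were chosen with earlier results of these data known, and leaving out Young 4 h was among the settings so chosen.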

Additional observations from a re-analysis of the deposited data

Results flagged for a closer look

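Within the 6 libraries of an age, the highest library stood far from the nearest other in 4 of the 14 sets of values (7 members in 2 ages), by Dixon's test at the 95% level on library-total CPM. Chance flags about 1 in 20 such groups, and collection times differ within each. Hlf had 19.5 CPM and Bhlhe41 31.5 CPM in the library labelled Young 4 h, which also held the neural markers. On the TMM scale, added after seeing the data, 2 of the 14 passed the same test, Dbp in Young 8 h and Ciart in Old 12 h, and these values of Hlf (10.9 CPM) and Bhlhe41 (17.6 CPM) did not. Dbp had 32.4 CPM in Young 8 h. Ciart had 7.73 CPM in Old 12 h, from 10 counts.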

How the results depend on the processing

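Of the members tested (2 to 4 with filterByExpr, 7 with the summed filter or no filter), 0 were called in any setting run for age and 0 for a difference between the curves. Over all genes, 0.0165% to 0.282% were called for age and 0% to 0.412% for that difference. Percentages in brackets are the share called over all genes. With 12 libraries and filterByExpr, 1 member was called for the shared curve (0.155%), 0 for Old (0%) and 0 for Young (0.0517%). The shared count was 2 with no filter (2.25%) and with the summed count filter (1.1%). Without Young 4 h it was 2 under no filter (0.683%) and under the summed filter with edgeR (1.11%), DESeq2 (0.425%) or RLE scaling (1.09%). Leaving out libraries gave 0 to 3 (0.0662% to 1.71%). For Old the count was 2 with no filter (0.0486%) and 1 by DESeq2 (0.0689%). Without Young 4 h it was 2 under no filter (0.573%), the summed filter (1.16%) and the summed filter with RLE scaling (1.11%). It was 1 there with RLE scaling (0.735%), DESeq2 (0.342%) or both DESeq2 and the summed filter (0.11%). For Young it was 2 with no filter (3.97%) or the summed filter (4.09%). Without Young 4 h it was 1 with RLE scaling (0.171%). It was 2 under no filter (0.106%), the summed filter (0.205%) or the summed filter with RLE scaling (0.198%). Leaving out libraries gave 0 to 2 in Old (0% to 1.62%) and 0 to 2 in Young (0.0331% to 7.25%). The causes were not tested.

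Old minus Young log2 differences, none called, changed sign between settings for every member but Tef (-0.51 to -0.027). Without Young 4 h, Hlf was 0.023 (no filter), 0.027 (summed filter), 0.012 (summed, DESeq2) and 0.018 (summed, RLE). Bhlhe41 was 0.48, 0.49, 0.52 and 0.49 in the same order, and Nfil3 -0.0051 with no filter. Leaving out libraries gave -0.70 to 0.75 for Dbp, -0.43 to 0.27 for Hlf, -0.20 to 0.36 for Nfil3, -0.11 to 0.48 for Bhlhe40, -0.33 to 0.79 for Bhlhe41 and -0.90 to 0.71 for Ciart. With Old and Young paired by collection time as a block, 0 of the 2 members tested were called for age, by edgeR, with all 12 libraries (Tef -0.37, Bhlhe40 0.0052) and without Young 4 h (Tef -0.056, Bhlhe40 0.41). Depth limits Ciart, Hlf and Dbp most, at 1 to 3 median counts.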
